A study of Mus musculus with 8 samples.

Results

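The mRNA levels of 37 genes of the tricarboxylic acid (TCA) cycle, of pyruvate entry into it and of itaconate synthesis were measured in primary murine microglia after LPS. The genes were listed by name and found in the count table by Ensembl identifier through GENCODE vM21 symbols, and all 37 of the list were among the 52636 gene identifiers. Microglia of wild-type C57BL/6 mice (the study's methods list wild-type pups as C57BL/6N) were shaken off mixed glial cultures of neonatal brains and kept in medium with 10% fetal bovine serum and 10 ng/ml CSF-1, a growth factor that microglia need. Both groups shared this strain, genotype and medium. Bacterial lipopolysaccharide (LPS, 5 µg/ml) or vehicle was then given for 24 h, with 4 libraries per group numbered as biological replicates 1 to 4. The model is a shake-off culture in serum and CSF-1, cells of other glial types can be carried over from the flask, and the sources do not say how many litters or animals contributed to a replicate. The p-values measure the spread between these libraries.

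The TCA cycle oxidises acetyl-CoA in the mitochondrial matrix and passes electrons to the respiratory chain. Pyruvate enters through the mitochondrial pyruvate carrier and the pyruvate dehydrogenase complex, which a family of kinases inhibits. In macrophages and microglia that sense LPS, the enzyme encoded by Acod1 (also known as Irg1) decarboxylates cis-aconitate, an intermediate of the aconitase reaction, to itaconate, which inhibits succinate dehydrogenase. Macrophages activated by LPS are known for breaks in the cycle at isocitrate and at succinate, and for export of citrate to lipid synthesis. Transcripts, not enzyme activities or metabolites, were measured here.

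The sequences in front of 5 genes are shown because these genes carry the results below: Acod1 rose most, Idh2 and Idh1 fell most, and the kinase genes Pdk1 and Pdk2 moved in opposite directions. They are RefSeq windows on GRCm38.p6, and each begins 250 bases before the RefSeq start and ends where the first GENCODE vM21 exon begins or at the start itself. Capitals mark matches, on either strand, to the 9 motifs searched, which are listed after the sequences.
Acod1 (chr14:103046762-103046976, + strand): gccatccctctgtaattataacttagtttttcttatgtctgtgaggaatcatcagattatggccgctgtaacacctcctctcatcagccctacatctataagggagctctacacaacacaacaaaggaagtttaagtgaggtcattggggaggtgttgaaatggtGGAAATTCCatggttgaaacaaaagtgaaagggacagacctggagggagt
Idh1 (chr1:65179182-65179392, - strand): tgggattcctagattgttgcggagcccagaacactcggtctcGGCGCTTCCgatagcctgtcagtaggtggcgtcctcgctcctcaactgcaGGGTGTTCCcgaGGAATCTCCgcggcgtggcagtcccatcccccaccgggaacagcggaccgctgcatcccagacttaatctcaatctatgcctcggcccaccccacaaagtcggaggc
Idh2 (chr7:80115393-80115600, - strand): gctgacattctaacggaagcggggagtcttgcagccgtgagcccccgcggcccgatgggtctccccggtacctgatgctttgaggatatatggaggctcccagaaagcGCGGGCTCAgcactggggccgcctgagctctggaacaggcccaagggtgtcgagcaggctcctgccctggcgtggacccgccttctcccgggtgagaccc
Pdk1 (chr2:71872974-71873223, + strand): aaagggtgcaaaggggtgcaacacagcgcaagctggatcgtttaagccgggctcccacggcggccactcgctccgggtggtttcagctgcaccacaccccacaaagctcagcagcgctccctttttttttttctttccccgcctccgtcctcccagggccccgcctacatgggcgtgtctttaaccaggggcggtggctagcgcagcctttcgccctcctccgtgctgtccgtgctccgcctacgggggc
Pdk2 (chr11:95041372-95041621, - strand): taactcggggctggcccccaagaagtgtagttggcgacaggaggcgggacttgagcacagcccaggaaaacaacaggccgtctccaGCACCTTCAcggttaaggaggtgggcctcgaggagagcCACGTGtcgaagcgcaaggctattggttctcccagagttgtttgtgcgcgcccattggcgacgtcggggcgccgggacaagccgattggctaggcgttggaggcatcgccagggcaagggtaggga
Windows were found for 34 of the 37 genes, in 45 windows with alternative starts included. The motifs were the kB core GGNNNTTCC, the HIF core ACGTG, the E-box CACGTG (which holds the HIF core), the ISRE core GAAANNGAA, the GAS element TTCNNNGAA, the ERR element AAGGTCA, the antioxidant element core TGANNNNGC, the NRF1 core CGCATGCG and the GABP/ETS element CCGGAAGT. In the 250 bases before the start, the kB letters stood in front of 10 of the 34 genes (in any window of a gene) and in 15.7% of all 32851 windows, and the HIF letters in front of 12 genes and in 16.6% of all windows. The Acod1 window held GGAAATTCC from position -85, counted back from the RefSeq start, and a HIF core at position -18 inside the exon that GENCODE annotates, which is not shown. Another RefSeq start of Idh1 has exonic bases before it and its window is not shown, and the window shown held 3 kB matches, from positions -208, -158 and -146. Pdk2 had an E-box from position -126 and an antioxidant core from position -164, Pdk3 had a HIF core from position -53, and no match was found in the Pdk1 window. Pdk1 and Pdk2 each have another RefSeq start, not shown, with no match in its window. The ISRE letters stood in front of 2 genes (7.13% of all windows), the E-box of 4 (6.02%), the antioxidant core of 15 (35.2%) and the NRF1 core of 1 (1.55%). GAS, ERR and GABP letters were in front of 0 of the 34 genes and in 7.02%, 4.08% and 2.88% of all windows. The gene counts take any window of a gene and the percentages take single windows, so the 2 cannot be compared directly. A match says only that these letters are present.

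Libraries held between 20071921 and 30604447 counts. All 8 genes of an LPS response list were higher in the LPS libraries, beside 30.3% of all tested genes. Nos2, the inducible nitric oxide synthase, went from at most 1.62 to at least 11219 CPM (counts scaled to library totals corrected by TMM factors). The summed CPM of 10 microglial markers ranged from 10151 to 12778 in vehicle libraries and from 1982 to 2215 in LPS libraries. Of the 10, 8 fell, beside 33.8% of all tested genes. The sums of 10 endothelial markers were 31.8 to 74.7 and 164 to 255 CPM, with Cldn5, Tek, Ly6c1 and Esam at or under 3 counts in every library. Astrocyte sums (10 markers, none at that floor) were 21.1 to 52.5 and 42.5 to 125 CPM, those of oligodendrocytes (10, with Mobp, Ermn and Opalin at the floor) 152 to 205 and 188 to 238, and those of oligodendrocyte precursors (10, with Neu4 at the floor) 27.5 to 142 and 63.8 to 139. Fibroblast and mural sums (10, with Rgs5 at the floor) were 4.3 to 9.0 and 8.87 to 28.8 CPM, and neuronal sums (10, none at the floor) 14.8 to 50.6 and 5.27 to 22.9. The astrocyte sum of 125 CPM was LPS replicate 1 alone, with at most 50.4 in the other LPS libraries. Among tested markers, 1 rose and 3 fell of 9 astrocyte and of 7 precursor genes, and 3 rose and 1 fell of 4 endothelial genes. Of 4 oligodendrocyte genes 1 rose and 1 fell, of 4 fibroblast and mural genes 1 rose, and of 7 neuronal genes 5 fell. Beside these counts, 30.3% of all tested genes were called higher and 33.8% lower. Genes encoded in mitochondrial DNA took 0.400% to 0.518% of the counts in vehicle and 0.114% to 0.237% in LPS libraries. The part of these shifts in the changes below was not tested, and in bulk RNA fewer cells of a type and less RNA per cell cannot be told apart.

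After LPS, and with TMM scaling, the cycle changed unevenly. Acod1 rose by more than 100-fold, and the isocitrate dehydrogenases, fumarase and cytosolic malate dehydrogenase fell. Citrate synthase and the pyruvate dehydrogenase subunits did not pass the test, but all passed as lower when library totals alone scaled the counts. Of the 37 genes, 35 passed the filter on low counts, and Pdk4 and Mpc1 did not. By the quasi-likelihood test of edgeR with Benjamini-Hochberg adjusted p-values under 0.05, 7 genes rose (Acod1, Dlst, Dld, Pdk1, Pdk3, Me1 and Me2), beside 30.3% of all 13847 tested genes. Another 13 fell (37.1%, beside 33.8% of all tested genes): Aco1, Idh1, Idh2, Idh3a, Idh3b, Idh3g, Suclg1, Suclg2, Sdha, Fh1, Mdh1, Pdk2 and Glud1. The other 15 did not pass. In all, 20 of the 35 were called, a share no higher than the 64.1% of all tested genes called in either direction. The vehicle and LPS libraries did not overlap in CPM for 21 of the 35 (beside 60.2% of all tested genes), 7 higher and 14 lower in LPS (beside 28.7% and 31.5%). Changes of at least 2-fold were called for 2 risen and 7 fallen genes, beside 16.1% and 21.7% of all. The median log2 fold change of the 35 was -0.11 (range -3.53 to 7.38), and that of all tested genes was also -0.11.

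**Figure D1:**
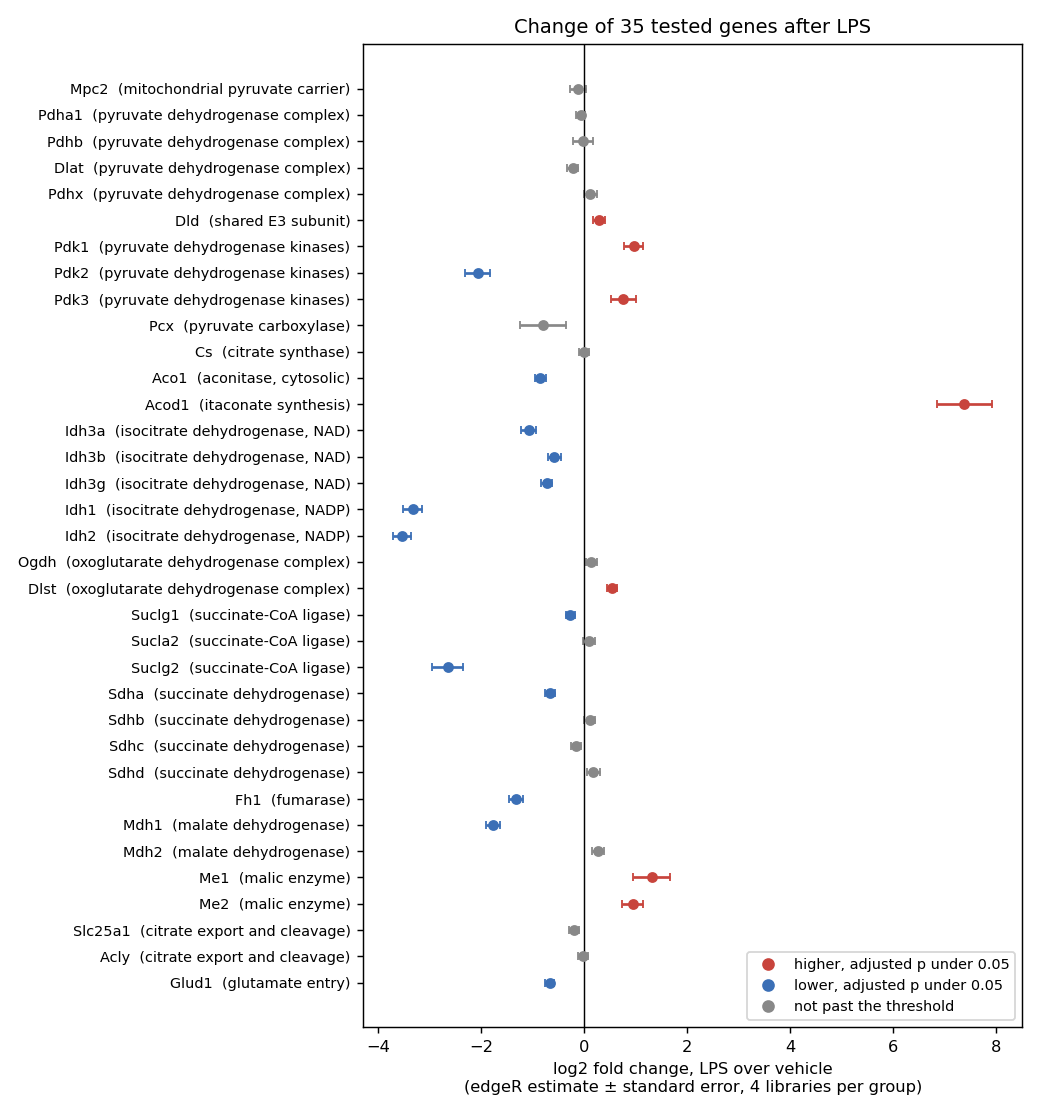
The log2 fold change (LPS over vehicle, x axis) of the 35 tested genes, ordered by role, with the edgeR standard error as bars and 4 libraries per group. Acod1 stands alone at 7.38, Idh2 and Idh1 lie at -3.53 and -3.32, and the 4 pyruvate dehydrogenase subunits Pdha1, Pdhb, Dlat and Pdhx lie between -0.22 and 0.12.

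These directions are relative to the TMM scaling. When library totals alone scaled the counts, the median of all tested genes moved by -0.68, the calls split into 1988 higher and 8457 lower in place of 4191 and 4686, and the 35 genes split into 1 higher and 29 lower. Acod1 kept its call there, whereas Dlst (-0.14) and Dld (-0.39) turned direction and Pdk1 (0.28), Pdk3 (0.07), Me1 (0.64) and Me2 (0.24) stayed above 0 without passing. The 29 held all 15 genes that did not pass with TMM, among them Cs, Ogdh, Acly and the 4 pyruvate dehydrogenase subunit genes. Upper quartile scaling moved the median of all genes by -0.16 and gave 6 higher and 16 lower of the 35. The median of the 35 minus the median of all tested genes was -0.0033 with TMM and -0.0060 with library totals, but -0.13 with at least 10 counts in every library, and between -0.086 and 0.056 with 1 library left out.

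**Figure D2:**
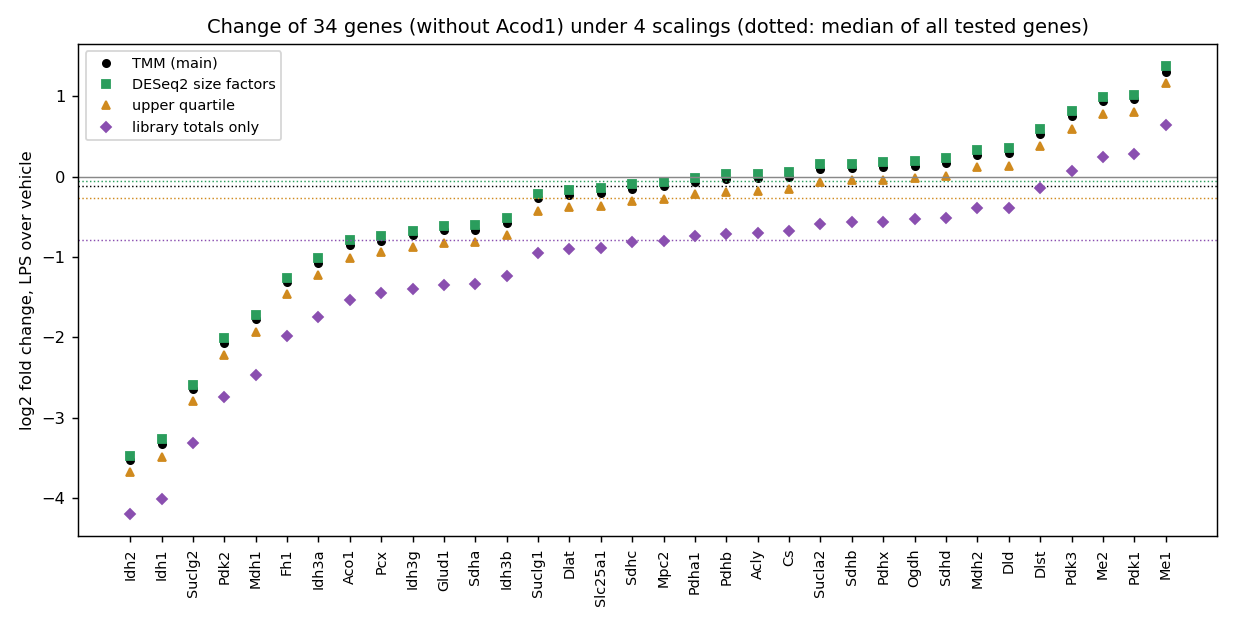
The log2 fold change (y axis) of 34 genes without Acod1, ordered by the TMM value, under TMM, DESeq2 size factors, upper quartile and library totals alone. Dotted lines are the median of all tested genes under each scaling, which lies at -0.11 with TMM and at -0.79 with library totals, and the points of each scaling shift with their line.

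Acod1 (ENSMUSG00000022126, chr14:103046977-103056573, + strand, GRCm38), the itaconate-forming enzyme, changed most. Its level was 69.2, 30.0, 84.8 and 19.7 CPM in vehicle replicates 1 to 4 and 7217, 7706, 10813 and 8284 CPM in LPS replicates 1 to 4. Every LPS library thus lay far above every vehicle library, and vehicle replicates 1 and 3 lay above 2 and 4. The mean rose from 50.9 ± 31.0 to 8505 ± 1599 CPM (SD, n = 4 each), a log2 fold change of 7.38 (SE 0.54, edgeR adjusted p = 3.17e-06) or 167-fold. Acod1 took 0.00633% ± 0.00369 of all counts in vehicle and 0.666% ± 0.0688 in LPS libraries (SD, n = 4 each). Leaving out any library gave log2 values from 7.13 to 7.80.

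Levels between genes were compared per length, as TPM (counts divided by the exonic length in GENCODE vM21 and then scaled to the same total in every library), within each group. In vehicle libraries the highest of the 37 were Idh1 (354 ± 63.1 TPM, SD, n = 4), Sdhd (331 ± 16.6), Mdh1 (246 ± 37.6) and Sdha (241 ± 5.45). The libraries of Idh1 and Sdhd overlapped, as did those of Mdh1 and Sdha, so these neighbours were not separated. Acod1 was 16th at 81.8 ± 45.7 TPM and made up 2.53% of the summed TPM of the 37. In LPS libraries Acod1 was first at 8203 ± 918 TPM, 85.0% of the sum, and ranked 12 to 15 among all genes of a library, against 1091 to 4395 in vehicle. Sdhd came next at 220 ± 17.8 TPM, then Mdh2 at 107 ± 18.8 and Acly at 98.7 ± 4.20, whose libraries overlapped. Idh1 moved from first to 21st (20.7 ± 1.70 TPM) and Mdh1 from the third to the 13th place (41.6 ± 4.05 TPM). The lowest in both groups were Pdk4, Mpc1 and, after LPS, Suclg2 (1.06 ± 0.603 TPM). TPM carries no correction for the composition of a library, so places and shares within a group are given, and a difference in TPM between the groups is not read as a change. On the TMM scale, the 36 genes without Acod1 summed to 2578 ± 129 CPM in vehicle and 2116 ± 99.2 in LPS.

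**Figure D3:**
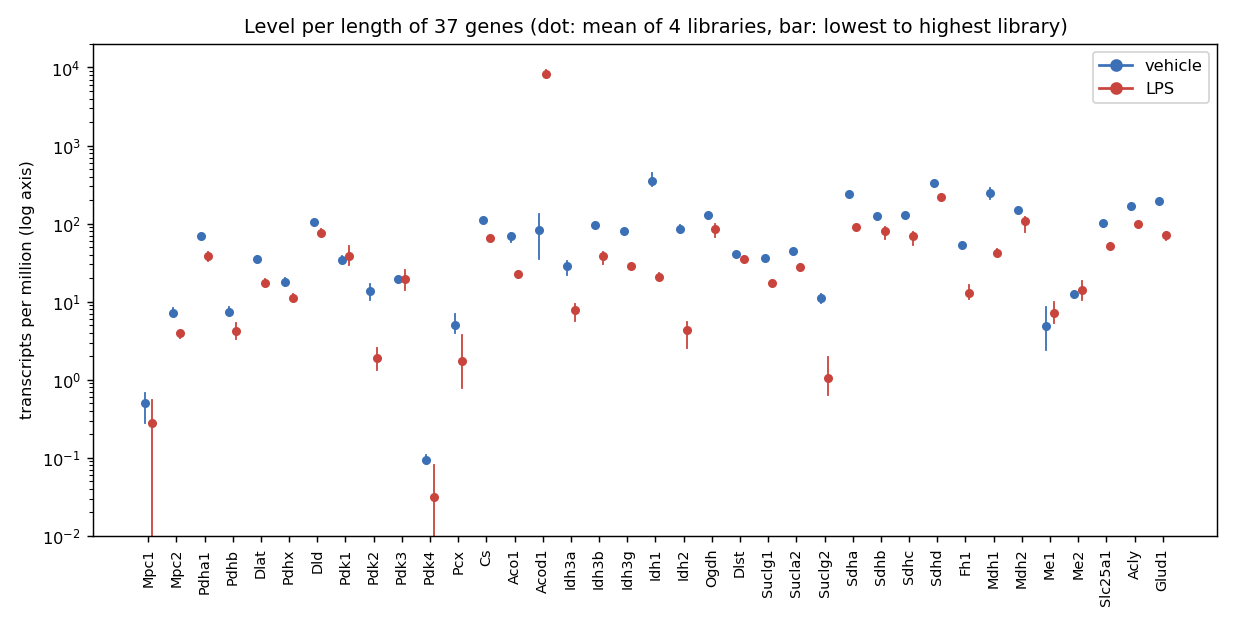
TPM (y axis, log scale) of the 37 genes in order of the pathway, with the mean of 4 libraries as dots and the lowest to highest library as bars. Within vehicle Idh1 is highest (354 TPM) and Acod1 16th (81.8), and within LPS Acod1 is highest (8203) and Idh1 21st (20.7), and bars that run to the lower edge are libraries at 0 (Mpc1 and Pdk4 in LPS).

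At the entry of the cycle, citrate synthase (Cs), which joins acetyl-CoA to oxaloacetate, was at 160, 141, 156 and 138 CPM in vehicle and 152, 139, 153 and 152 CPM in LPS. The groups overlapped throughout, and the log2 fold change was 0.0016 (SE 0.10, edgeR adjusted p = 0.989). With library totals alone Cs passed as lower (edgeR adjusted p = 0.000122). Aco1, the cytosolic aconitase that doubles as an iron-responsive RNA-binding protein, was at 73.8, 75.3, 64.1 and 74.4 CPM in vehicle and 33.8, 41.0, 42.9 and 42.2 CPM in LPS. All LPS libraries lay below all vehicle libraries, and Aco1 fell by 0.85 on the log2 scale (SE 0.11, edgeR adjusted p = 8.91e-05).

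All 5 isocitrate dehydrogenase genes fell (beside 33.8% of all tested genes), and the NADP-dependent pair fell most. Idh1, the cytosolic NADP enzyme, was at 298, 196, 209 and 204 CPM in vehicle and 20.8, 21.3, 28.1 and 20.2 CPM in LPS. Vehicle replicate 1 was the highest, and the lowest vehicle library was still far above the highest LPS library. The log2 change was -3.32 (SE 0.18, edgeR adjusted p = 5.81e-07), 10.0-fold lower. Idh2, the mitochondrial NADP enzyme that supplies NADPH in the matrix, was at 47.1, 49.2, 51.3 and 52.7 CPM in vehicle and 4.31, 5.45, 2.94 and 4.71 CPM in LPS. Its vehicle libraries were close together and the LPS libraries lay apart from them (log2 -3.53, SE 0.18, edgeR adjusted p = 3.86e-07, 11.5-fold lower). The 3 subunits of the NAD-dependent enzyme, the one that serves the cycle, fell less. The catalytic subunit gene Idh3a went from 32.8 ± 4.62 to 15.6 ± 2.21 CPM (SD, n = 4 each, log2 -1.07, SE 0.14, edgeR adjusted p = 0.000142). Idh3g and Idh3b, which encode the accessory subunits, had log2 values of -0.72 (SE 0.10) and -0.57 (SE 0.12) with edgeR adjusted p of 0.000193 and 0.00198. No vehicle library overlapped an LPS library for any of the 5. Of all tested genes 60.2% did not overlap, and 31.5% did not overlap and were lower.

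The oxoglutarate dehydrogenase complex, which turns oxoglutarate into succinyl-CoA, did not follow them. Ogdh, its first enzyme, was at 154 to 181 CPM in vehicle and 161 to 205 in LPS and did not pass (log2 0.14, SE 0.11, edgeR adjusted p = 0.286). Dlst, its succinyltransferase core, was at 97.2, 86.6, 91.1 and 86.0 CPM in vehicle and 138, 119, 141 and 125 CPM in LPS, higher in every LPS library (log2 0.54, SE 0.10, edgeR adjusted p = 0.000836, but log2 -0.14 with library totals alone). Dld, the dihydrolipoamide dehydrogenase that this complex shares with pyruvate dehydrogenase, was at 86.6, 91.3, 94.7 and 86.6 CPM and at 104, 101, 136 and 101 CPM. LPS replicate 3 stood above the other LPS libraries, and the groups did not overlap (log2 0.30, SE 0.12, edgeR adjusted p = 0.0461, but log2 -0.39 with library totals alone). The Dld call was lost without vehicle replicate 1, 2 or 4 (edgeR adjusted p = 0.0545, 0.0519 and 0.0639), and with upper quartile scaling (0.225), no filter (0.136) or at least 10 counts in every library (0.0635).

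Succinate-CoA ligase makes succinate from succinyl-CoA, with a common subunit (Suclg1) and a partner that sets the nucleotide, ADP for Sucla2 and GDP for Suclg2. Suclg2 was at 10.8, 12.9, 12 and 11.6 CPM in vehicle and 3.41, 1.58, 1.31 and 1.30 CPM in LPS. LPS replicate 1 stood above the other LPS libraries and below all vehicle libraries, and Suclg2 fell by 2.65 on the log2 scale (SE 0.30, edgeR adjusted p = 4.73e-05), 6.27-fold. Of the 50-base windows of the Suclg2 transcripts 16.0% also occur in Gm15163, whose counts of 172 to 211 in vehicle and 12 to 20 in LPS moved the same way. Sucla2 was at 38.4 to 43.4 CPM in vehicle and 36.9 to 53.8 in LPS, overlapping, and did not pass (log2 0.10, SE 0.13, edgeR adjusted p = 0.512). Suclg1 was at 39.3, 37.8, 40.2 and 35.8 CPM in vehicle and 30.8, 30.8, 32.9 and 32.7 CPM in LPS, a narrow gap with no overlap (log2 -0.27, SE 0.08, edgeR adjusted p = 0.0190). The Suclg1 call did not hold with a replicate block (edgeR adjusted p = 0.0552), nor without vehicle replicate 1, 2 or 3 or LPS replicate 2 (edgeR adjusted p = 0.0843, 0.0653, 0.117 and 0.0646). It was also lost by DESeq2 (adjusted p = 0.0708), with its size factors in edgeR (0.0576) and with no filter (0.0522).

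Succinate dehydrogenase is the target of itaconate and a member of the respiratory chain. Of its 4 subunits only the gene of the flavoprotein passed, beside 64.1% of all tested genes. Sdha was at 233, 222, 243 and 217 CPM in vehicle and 135, 146, 156 and 142 CPM in LPS, without overlap (log2 -0.66, SE 0.10, edgeR adjusted p = 0.000214). The iron-sulfur subunit gene Sdhb and the membrane anchor genes Sdhc and Sdhd had log2 values of 0.11, -0.15 and 0.17 with edgeR adjusted p of 0.424, 0.213 and 0.245, and their groups overlapped. Sdhc passed as lower with upper quartile scaling (log2 -0.30, edgeR adjusted p = 0.0317) and with library totals alone (log2 -0.82, edgeR adjusted p = 0.000199). Fumarase (Fh1) was at 39.8, 40.5, 48.1 and 39.9 CPM in vehicle and 21.1, 15, 16.3 and 15.4 CPM in LPS. LPS replicate 1 was the highest of its group and vehicle replicate 3 of its own, with no overlap (log2 -1.31, SE 0.13, edgeR adjusted p = 2.41e-05, 2.48-fold lower).

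The malate dehydrogenases, which exchange malate and oxaloacetate on either side of the mitochondrial membrane, differed. Mdh1, the cytosolic enzyme of the malate-aspartate shuttle, was at 130, 151, 138 and 158 CPM in vehicle and 37.1, 41.8, 52.7 and 37.3 CPM in LPS. Its groups lay far apart (log2 -1.78, SE 0.14, edgeR adjusted p = 4.08e-06, 3.42-fold lower). Mdh2, the mitochondrial enzyme of the cycle, was at 136, 122, 119 and 115 CPM in vehicle and 163, 151, 124 and 155 CPM in LPS. Only LPS replicate 3 fell within the vehicle range, and Mdh2 did not pass (log2 0.27, SE 0.11, edgeR adjusted p = 0.0567). Mdh2 passed without LPS replicate 3 (log2 0.36, edgeR adjusted p = 0.00577) and without vehicle replicate 1 (log2 0.36, edgeR adjusted p = 0.0438), and by DESeq2 (adjusted p = 0.0216) or its size factors in edgeR (0.0286). With library totals alone Mdh2 passed as lower (log2 -0.39, edgeR adjusted p = 0.0280).

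**Figure D4:**
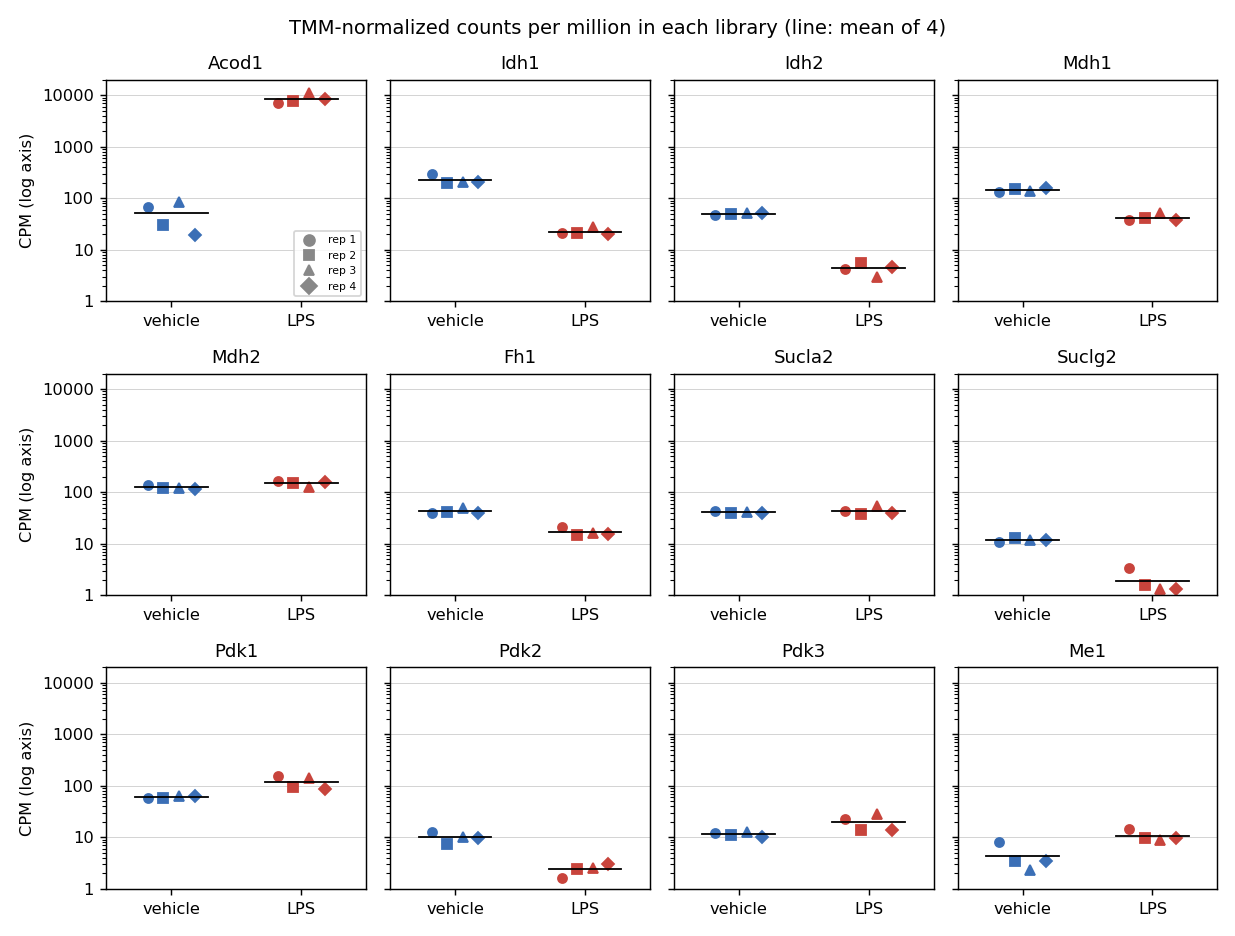
TMM-normalized CPM (y axis, log scale, the same in each panel) of 12 genes in the 4 vehicle and 4 LPS libraries, with symbols for the replicate number and a line at the group mean. Acod1 is at 7217 CPM or more in every LPS library, Idh1, Idh2, Mdh1, Fh1, Suclg2 and Pdk2 are lower in every LPS library, and Mdh2 and Sucla2 overlap.

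Pyruvate enters through the carrier formed by Mpc1 and Mpc2. Mpc2 was at 10.7 to 15.1 CPM in vehicle and 9.47 to 13.4 in LPS, overlapping (log2 -0.11, SE 0.16, edgeR adjusted p = 0.544). Mpc1 had only 4, 9, 11 and 5 counts in vehicle and 0, 8, 3 and 6 in LPS libraries and was not tested, and 26.3% of its 50-base windows also occur in 4930506C21Rik on the opposite strand. At these counts no difference in Mpc1 was detectable. The subunit genes of pyruvate dehydrogenase, which makes acetyl-CoA from pyruvate, gave 0 calls of 4, beside 64.1% of all tested genes called. Pdha1 was at 56.1 to 63.2 CPM in vehicle and 54.0 to 60.6 in LPS (log2 -0.07, SE 0.09, edgeR adjusted p = 0.508), with 16.1% of its exonic bases under Map3k15 on the opposite strand. Pdhb, Dlat and Pdhx had log2 values of -0.02, -0.22 and 0.12 with edgeR adjusted p of 0.929, 0.0982 and 0.410. Dlat passed without LPS replicate 3 (log2 -0.27, edgeR adjusted p = 0.0421). With library totals alone Pdha1, Pdhb, Dlat and Pdhx all passed as lower (edgeR adjusted p = 0.000139, 0.00367, 3.2e-05 and 0.00107).

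The pyruvate dehydrogenase kinases, which phosphorylate and switch off that complex, moved apart. Pdk1 was at 59.3, 57.1, 63.5 and 63.8 CPM in vehicle and 153, 94.4, 142 and 86.1 CPM in LPS. LPS replicates 1 and 3 were well above 2 and 4, and all 4 were above the vehicle libraries (log2 0.97, SE 0.19, edgeR adjusted p = 0.00128). Pdk3 was at 12.3, 11, 12.9 and 10.3 CPM in vehicle and 22.8, 13.8, 28.5 and 13.7 CPM in LPS. The same LPS libraries were high, and the lower pair was close to the vehicle range (log2 0.76, SE 0.24, edgeR adjusted p = 0.0185). Pdk2 went the other way, from 12.8, 7.33, 10.1 and 9.94 CPM in vehicle to 1.62, 2.40, 2.52 and 3.03 CPM in LPS, lower in every LPS library (log2 -2.07, SE 0.24, edgeR adjusted p = 5.13e-05, 4.19-fold lower). Pdk4 had 2, 2, 3 and 2 counts in vehicle and 1, 0, 0 and 2 in LPS libraries, too few for a test or a fold. In the windows shown above, no motif matched before Pdk1, and the E-box and the antioxidant core matched before Pdk2. The window of another RefSeq start of Pdk2 had no match, and whether these letters bear on the changes was not tested.

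Pyruvate carboxylase (Pcx), which feeds oxaloacetate, was at 8.05, 4.43, 4.69 and 5.08 CPM in vehicle and 6.82, 1.80, 1.63 and 2.60 CPM in LPS. Replicate 1 was the highest of both groups, and the groups overlapped through it (log2 -0.80, SE 0.45, edgeR adjusted p = 0.140). With a replicate block Pcx passed (log2 -0.98, SE 0.26, edgeR adjusted p = 0.0110), as it did without LPS replicate 1 (log2 -1.46, edgeR adjusted p = 0.00249).

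Both malic enzymes, which turn malate into pyruvate, rose (beside 30.3% of all tested genes). Me1, the cytosolic NADP enzyme, was at 8.05, 3.46, 2.32 and 3.44 CPM in vehicle and 14.5, 9.53, 9.0 and 9.79 CPM in LPS. Replicate 1 was again highest in both groups, with no overlap (log2 1.31, SE 0.36, edgeR adjusted p = 0.00970). Of its windows 28.3% also occur in Gm7049, which had 2 to 13 counts a library. Me2, a mitochondrial malic enzyme, was at 19.7, 21, 22.3 and 21.6 CPM in vehicle and 44.0, 30.8, 58.9 and 28.7 CPM in LPS, with LPS replicates 1 and 3 high (log2 0.94, SE 0.21, edgeR adjusted p = 0.00330). The citrate exporter gene Slc25a1 and the ATP citrate lyase gene Acly, which lead citrate carbon to cytosolic acetyl-CoA, did not pass. Acly was at 192 to 231 CPM in vehicle and 199 to 214 in LPS (log2 -0.02, SE 0.10, edgeR adjusted p = 0.878). Slc25a1 was at 48.3 to 56.1 CPM in vehicle and 40.6 to 47.6 in LPS, apart but narrowly (log2 -0.20, SE 0.10, edgeR adjusted p = 0.0894), and it passed without LPS replicate 3 (log2 -0.24, edgeR adjusted p = 0.0340). Glud1, the glutamate dehydrogenase that yields oxoglutarate, was at 188, 184, 198 and 180 CPM in vehicle and 119, 113, 116 and 124 CPM in LPS, lower in every LPS library (log2 -0.67, SE 0.09, edgeR adjusted p = 0.000120).

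Ratios within a library do not depend on the scaling between libraries. For 12 pairs of subunits or isoforms, log2 ratios of counts (pseudocount 0.5) were compared by a two-sided exact permutation test over the 70 divisions of 8 libraries, for which the smallest p is 0.0286. No ratio had an adjusted p under 0.05 over the 12 pairs. The 5 pairs whose libraries did not overlap reached the smallest unadjusted exact p of 0.0286 (adjusted p = 0.0686, exact permutation). A wider separation could not have lowered these p-values, so not passing says nothing about the size of these 5 differences. Sucla2 over Suclg2 went from 1.78 ± 0.177 to 4.60 ± 0.711 (SD, n = 4 each), higher in 4 of 4 LPS libraries. Pdk1 over Pdk2 went from 2.62 ± 0.310 to 5.61 ± 0.741 and Pdk3 over Pdk2 from 0.23 ± 0.290 to 2.99 ± 0.776. Mdh1 over Mdh2 went from 0.23 ± 0.219 to -1.82 ± 0.407. Sdha over Sdhb went from 1.81 ± 0.113 to 1.04 ± 0.209. Idh1 over Idh2 differed by 0.23 (SE 0.34, exact p = 0.514) and Pdha1 over Pdhb by -0.01 (SE 0.23, exact p = 0.857), with overlap in both. The other 5 pairs (Idh3a and Idh3g over Idh3b, Pdk4 over Pdk2, Me1 over Me2, Mpc1 over Mpc2) overlapped with differences from -0.50 to 1.25. With a pseudocount of 5 the Pdk4 over Pdk2 difference moved from 1.25 to 2.24 without overlap. Pdk4 had only 0 to 3 counts a library, fewer than that pseudocount, so this ratio follows Pdk2 and is not a result about Pdk4.

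**Figure D5:**
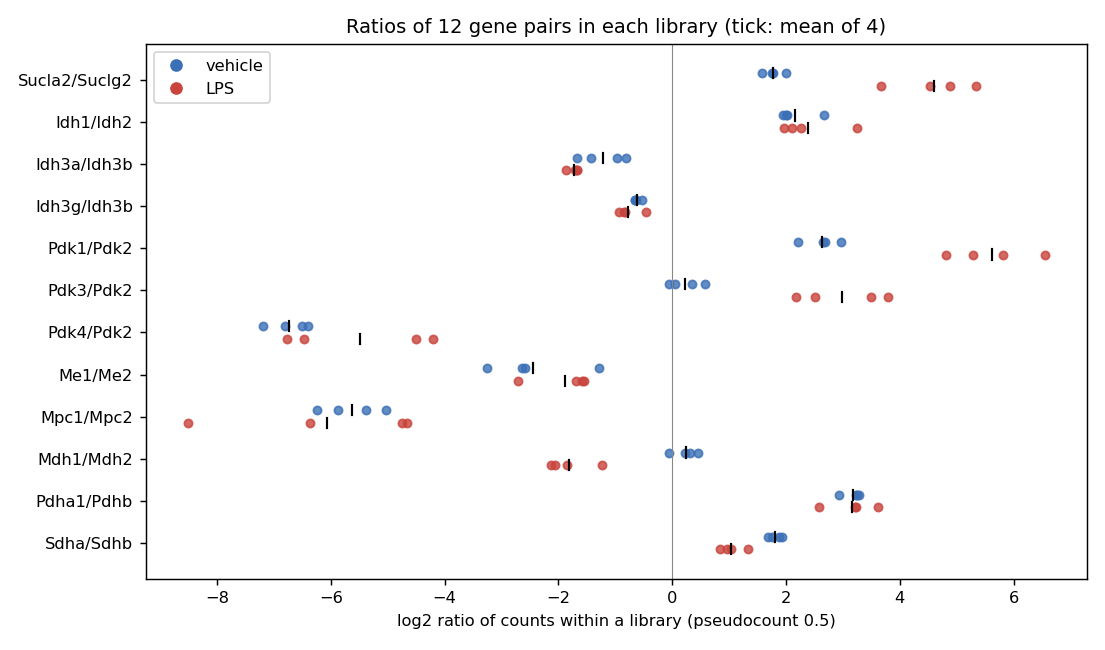
The log2 ratio of counts (x axis) of 12 gene pairs in each library, with vehicle above LPS in each row and a tick at the mean of 4. The groups separate for Sucla2/Suclg2, Pdk1/Pdk2, Pdk3/Pdk2, Mdh1/Mdh2 and Sdha/Sdhb and overlap for the other 7 pairs.

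Other listed genes of these pathways fell more often than they rose. The lists were chosen with earlier results of these data known, so their shares describe the listed genes and are no test of the pathways. Of 48 listed genes 45 were tested, and 7 rose and 23 fell (edgeR adjusted p under 0.05, beside 30.3% and 33.8% of all tested genes), with a median log2 fold change of -0.69 against -0.11 for all tested genes. The 7 are 15.6% and the 23 are 51.1% of the 45, and the lists below hold 3 to 11 tested genes each. When library totals alone scaled the counts, 3 rose and 36 fell. Among other TCA enzymes and assembly factors of succinate dehydrogenase 6 of 8 fell and 1 rose (75% and 12.5%). Dhtkd1, a paralog of Ogdh that acts on oxoadipate, went from 1.04 to 1.95 CPM in vehicle to at most 0.163 CPM in LPS (log2 -4.36, SE 0.58, edgeR adjusted p = 0.000107), with 0 to 3 counts in each LPS library. The hydroxyglutarate dehydrogenase gene D2hgdh (log2 -1.27) and the assembly factor gene Sdhaf4 (log2 -1.08) fell without overlap.

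Pyruvate dehydrogenase phosphatases switch that complex on, and lipoylation provides it with lipoate. Of 6 genes listed for the phosphatases, their regulation and lipoylation, 4 fell and 1 rose. These are 66.7% and 16.7%, beside 33.8% and 30.3% of all tested genes. Pdp2, the catalytic subunit of such a phosphatase, was at 21.1, 21.2, 18.5 and 21.1 CPM in vehicle and 4.97, 6.92, 4.76 and 6.71 CPM in LPS, apart in every library (log2 -1.81, SE 0.16, edgeR adjusted p = 7.95e-06). Its relative Pdp1 was at 15.1 to 17.8 CPM in vehicle and 15.3 to 23.7 in LPS and did not pass (log2 0.11, edgeR adjusted p = 0.558), a gene named outside the naming rule for this contrast. Lipt2, a lipoyltransferase, had a log2 value of -1.34 (SE 0.22, edgeR adjusted p = 0.000427). Mitochondrial carriers split, with 2 of 6 higher and 2 lower (33.3% each, about the shares of all tested genes). The aspartate-glutamate carriers of the malate-aspartate shuttle moved apart, Slc25a12 from 41.2 to 50.4 CPM in vehicle to 94.2 to 133 in LPS (log2 1.30, SE 0.13, edgeR adjusted p = 2.00e-05) and Slc25a13 from 14.9 to 17.7 to 2.07 to 5.39 CPM (log2 -2.11, SE 0.25, edgeR adjusted p = 6.90e-05). The glutamate carrier gene Slc25a22 rose (log2 1.33, SE 0.19, edgeR adjusted p = 0.000214).

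Genes of carbon and nitrogen entry and exit fell in 7 of 11 cases (63.6%, beside 33.8% of all tested genes) and rose in 0. Glul, glutamine synthetase, was at 436, 324, 346 and 337 CPM in vehicle and 43.0, 51.2, 59.0 and 47.6 CPM in LPS, far apart (log2 -2.84, SE 0.15, edgeR adjusted p = 4.52e-07). Pck2, the mitochondrial phosphoenolpyruvate carboxykinase, and Got1, the cytosolic aspartate aminotransferase, had log2 values of -1.30 and -1.19 without overlap. The acetate-activating genes Acss1 and Acss2 did not pass (edgeR adjusted p = 0.0551 and 0.0536) but did with a replicate block (edgeR adjusted p = 0.00361 and 0.0328). In the shunt from aspartate to fumarate 1 of 5 rose and 2 fell (20% and 40%, beside 30.3% and 33.8% of all tested genes). Ass1, argininosuccinate synthase, was at 2.17, 0.969, 3.65 and 0.639 CPM in vehicle and 32.8, 11.7, 43.6 and 17.1 CPM in LPS, high in LPS replicates 1 and 3 (log2 3.81, SE 0.59, edgeR adjusted p = 0.000319). Of its windows 38.6% also occur in Gm5424, so its count is uncertain. The adenylosuccinate synthase genes Adssl1 and Adss fell by 3.12 and 2.15 on the log2 scale.

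Among 6 tested genes of itaconate breakdown, transport and handling 2 rose and 0 fell. The 2 are 33.3%, about the 30.3% of all tested genes called higher. Clybl, the citramalyl-CoA lyase of the breakdown route, was at 5.99, 4.98, 4.25 and 5.33 CPM in vehicle and 11.9, 8.6, 17.8 and 6.82 CPM in LPS, higher in every LPS library (log2 1.14, SE 0.28, edgeR adjusted p = 0.00566). Slc13a3, a dicarboxylate carrier named because it is the other gene of this count, was at 288, 24.8, 23.1 and 23.1 CPM in vehicle and 434, 969, 134 and 649 CPM in LPS. Vehicle replicate 1 overlapped the LPS range (log2 2.61, SE 0.96, edgeR adjusted p = 0.0366). Of the 3 mitochondrial sirtuin genes 2 fell (66.7%, beside 33.8% of all tested genes) and 0 rose.

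General mitochondrial genes and regulators were given for context. Of 15 tested genes of import, chaperones and outer membrane 4 rose and 7 fell, beside 30.3% and 33.8% of all tested genes, and with a replicate block Tomm40 fell too (log2 -0.73, edgeR adjusted p = 0.0252, against 0.0509 without). Tomm20, an import receptor, and Phb, prohibitin, had log2 values of -3.49 and -2.0, and Vdac1, an outer membrane channel, of 1.01, all without overlap. Of 10 tested regulators 3 rose and 3 fell, about the shares of all tested genes, and with a replicate block Ppargc1a fell too (log2 -1.72, edgeR adjusted p = 0.0287, against 0.167 without). Hif1a, the hypoxia-inducible factor that is known to act on Pdk1, was at 265, 145, 160 and 139 CPM in vehicle and 1613, 1016, 1097 and 1034 CPM in LPS, far higher in every LPS library (log2 2.75, SE 0.26, edgeR adjusted p = 1.34e-05). Ppard, a nuclear receptor of fatty acid oxidation, had a log2 value of 1.72, and Ppargc1b, a coactivator of mitochondrial genes, and Tfb2m, a mitochondrial transcription factor, of -1.84 and -1.67. Whether any of these bears on the 37 genes was not tested.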

How the data were processed

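RNA of 4 vehicle and 4 LPS libraries was read in single-end runs of 50 bases. The values the authors deposited are raw counts per Ensembl gene. HTSeqGenie produced them from reads that GSNAP placed at a single site of GRCm38, and they are not normalized. All 8 columns were mapped through the sample labels. The labels name a stranded TruSeq kit and a NovaSeq, whereas the study's methods name another TruSeq kit and a HiSeq. The annotation release and the use of strand are not given in the sources used here, so genes that overlap on opposite strands cannot be told apart. Symbols and positions came from GENCODE vM21, which named 52403 of the 52636 identifiers, and promoter windows from RefSeq.

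Counts were tested with edgeR 4.0.16 in R 4.3.3 (TMM, two-sided quasi-likelihood test, filterByExpr set to 10 counts and a total of 15), and p-values were adjusted by Benjamini-Hochberg over the 13847 tested genes with a threshold of 0.05. The script was tested on simulated data. Python 3.11.15 (numpy 2.4.6, pandas 2.3.3) gave the ratios and tables, and matplotlib 3.10.9 the figures. The alternatives were DESeq2 1.42.0 (Wald test), its size factors in edgeR, upper quartile scaling, library totals alone, no filter, at least 10 counts in every library, a replicate block, each library left out in turn, and a ratio pseudocount of 5. Summing near-identical copies was added after seeing the data. Library totals of 20071921 to 30604447 set the counting error, and the floor of 3 counts covers counting error only.

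The 37 genes and the other lists were chosen with earlier results of these data known. All 37 could be named. Of the other lists, genes were named with an adjusted p under 0.05, a log2 change of at least 1 either way and no overlap, at most 4 per list, and some genes of these lists count in the totals but are not reported singly here. The exceptions, chosen after their values were seen, are Pdp1, Slc13a3, and Acss1, Acss2, Tomm40 and Ppargc1a, whose calls the block changed.

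The sources do not say that same-numbered libraries share a culture. As a check of pairing, deviations from the group means were correlated between same-numbered libraries over 8155 genes (mean log2 CPM 3 or more), which gave r = 0.368, 0.183, 0.169 and 0.101. All lie above the limit of 0.1, but vehicle 2 with LPS 4 (0.136) and vehicle 4 with LPS 2 (0.128) correlated more than the fourth pair. The main tests are unblocked, and values with a replicate block are given where they change a call. The most similar libraries were LPS replicates 2 and 4, with a chi-square of 6.98 per degree of freedom, above counting noise. The labels give no batch.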

Additional observations from a re-analysis of the deposited data

Results flagged for a closer look

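Values were marked where the highest or lowest of the 4 libraries of a group stood apart by Dixon's 95% limit for its gap over the range. Of 140 groups checked 14 were marked, where chance marks about 1 in 20.

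In vehicle replicate 3, Aco1 (64.1 CPM) and Pdp2 (18.5) were low and Fh1 (48.1) was high. In vehicle replicate 1, Idh1 (298 CPM), Slc25a1 (56.1), Hif1a (265) and the log2 ratio of Idh1 over Idh2 (2.66) were high. In LPS replicate 1, Suclg2 (3.41 CPM), Me1 (14.5) and Hif1a (1610) were high. In LPS replicate 3, Idh1 (28.1 CPM) and Dld (136) were high and the log2 ratio of Me1 over Me2 (-2.71) was low. In LPS replicate 2, Cs (139 CPM) was low. The calls of Aco1, Idh1, Suclg2, Fh1 and Me1 held without each of these libraries, and the Dld and Slc25a1 calls changed with other libraries as given above.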

How the results depend on the processing

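The counts of genes higher and lower kept within 1.5 times under each alternative except library totals alone, which gave 1 higher and 29 lower of the 37, and 3 higher and 36 lower of the other pathway genes. Leaving out 1 library gave 6 to 8 higher and 12 to 15 lower of the 37. The median log2 fold change of the 37, -0.11, moved to -0.064 with DESeq2, -0.061 with its size factors, -0.27 with upper quartile scaling, -0.79 with library totals and -0.17 with at least 10 counts in every library, and to between -0.20 (without LPS replicate 3) and 0.0083 (without vehicle replicate 3) with 1 library left out.

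Genes whose sign turned lay near 0, apart from those under library totals. Pdhb turned to 0.033 with DESeq2 and with its size factors, and Acly to 0.036 and 0.039. Upper quartile scaling turned Cs (-0.15), Ogdh (-0.012), Sucla2 (-0.063), Sdhb (-0.042) and Pdhx (-0.038). Library totals turned Cs (-0.67), Ogdh (-0.53), Dlst (-0.14), Dld (-0.39), Sucla2 (-0.59), Sdhb (-0.56), Sdhd (-0.51), Mdh2 (-0.39) and Pdhx (-0.57). Cs turned to -0.032 with no filter and -0.054 with at least 10 counts. With 1 library left out, Acly ranged from -0.036 to 0.073, Pdhb from -0.21 to 0.10, Pdha1 from -0.089 to 0.012, Mpc2 from -0.20 to 0.060, Cs from -0.0062 to 0.086 and Sucla2 from -0.018 to 0.18. The ratio differences ranged from -0.051 to 0.40 for Idh1/Idh2, -0.91 to 0.37 for Mpc1/Mpc2 and -0.17 to 0.18 for Pdha1/Pdhb, and Mpc1/Mpc2 turned to 0.29 with a pseudocount of 5. These causes were not tested.

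Over the alternatives, the adjusted p ranged from 0.00212 (as lower, with library totals) to 0.225 for Dld, 7.66e-06 to 0.117 for Suclg1, 0.00577 to 0.404 for Mdh2, 0.00249 to 0.387 for Pcx, 3.2e-05 to 0.367 for Dlat, 0.000199 to 0.696 for Sdhc and 2.29e-05 to 0.341 for Slc25a1. The replicate block changed the calls of Suclg1 (adjusted p = 0.0552) and Pcx (0.0110) and of no other of the 37. No ratio passed with either pseudocount, and ratios with 1 library left out were taken as values with no test. With a pseudocount of 5, Pdk4 over Pdk2 did not overlap either (difference 2.24, exact permutation p = 0.0286, adjusted 0.0571), on 0 to 3 counts of Pdk4 a library. The pseudocount exceeded those counts, so the separation follows Pdk2 and is not a result about Pdk4. Summing near-identical copies, chosen after seeing the data, changed no call of Cs, Suclg2, Pdhb, Me1 or Glud1. Low counts, for reasons that were not tested, limited Mpc1 and Pdk4, and 4 libraries per group limited every ratio.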
